A study of Mus musculus with 6 samples.

Results

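The feedback genes of the ERK pathway were examined in mouse liver with and without the G protein-coupled receptor Gpr146. The 10 genes were the dual-specificity phosphatases Dusp1, Dusp4, Dusp5 and Dusp6, the Sprouty genes Spry2 and Spry4, the Sprouty-related genes Spred1 and Spred2, and the ERK-induced genes Ier3 and Phlda1. Each was found by its platform gene symbol, and a gene with more than 1 probe set was represented by the one of highest mean signal. All 10 were among the 22180 genes of the table and among the 11090 genes tested, the upper 50% when genes are ordered by their mean, with a lowest mean of 2.99 on the log2 scale. Dusp5, with a KO mean of 2.84, passed that filter through its WT livers.

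The study compared 3 wild-type (WT) with 3 whole-body Gpr146 knockout (KO) males, littermates of 24 weeks on a C57BL/6J background and on chow. All 6 mice had gone without food for 16 hours and then fed again for 6 hours, so the WT group is itself a refed state and no fasted group was compared. Each liver was hybridised to 1 Affymetrix whole-transcript array. The deletion was in all tissues, so the liver values do not separate a loss in hepatocytes from a loss elsewhere. The sources used here do not say how the allele was made.

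Growth factors, insulin and many G protein-coupled receptors activate the kinase cascade RAS, RAF, MEK and ERK, and active ERK switches on a set of immediate early genes within minutes to hours. Part of that set encodes brakes on the cascade itself. The DUSP proteins remove phosphate from MAP kinases, Sprouty and SPRED proteins act upstream at the receptor, RAS and RAF, and the mRNA of several of these brakes is therefore used as a readout of ERK activity. In liver the cascade responds to insulin after a meal and to growth factors during regeneration. The comparison asks whether the transcripts of these brakes differ in refed liver when Gpr146 is missing.

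Promoter sequences are shown for the phosphatase genes Dusp1, Dusp5 and Dusp6 and for Ier3. As given below, Dusp5, Dusp6 and Ier3 were lower in every KO mouse than in any WT mouse, while Dusp1 overlapped. Whether the motifs go with these differences was not tested. Each is the stretch of 150 bases before the gene's start, 5′ to 3′ on the gene's strand, from RefSeq on GRCm38.p6. Capitals mark matches to a cAMP response element (TGACGTCA) or to the CArG box, the site of serum response factor.

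Dusp1, chr17:26508473-26508622, minus strand: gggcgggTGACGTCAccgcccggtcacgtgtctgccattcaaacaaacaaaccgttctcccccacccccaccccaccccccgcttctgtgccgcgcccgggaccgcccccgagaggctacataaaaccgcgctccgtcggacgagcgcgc
Dusp5, chr19:53528995-53529144, plus strand: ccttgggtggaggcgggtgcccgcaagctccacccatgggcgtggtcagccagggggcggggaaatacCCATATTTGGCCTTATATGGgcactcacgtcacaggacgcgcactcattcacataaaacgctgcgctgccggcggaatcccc
Dusp6, chr10:99263081-99263230, plus strand: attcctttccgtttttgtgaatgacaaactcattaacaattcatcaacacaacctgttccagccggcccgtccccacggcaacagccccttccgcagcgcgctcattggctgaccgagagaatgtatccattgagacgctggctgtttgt
Ier3, chr17:35821563-35821712, plus strand: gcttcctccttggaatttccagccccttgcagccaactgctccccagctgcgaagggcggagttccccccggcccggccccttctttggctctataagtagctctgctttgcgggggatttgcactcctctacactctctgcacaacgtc

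The motif search covered the full RefSeq window of 300 bases, 250 before and 50 after the start, on both strands, for 7 of the 10 genes. The table had no entry for Dusp4, Phlda1 and Spry4. Dusp5 held 2 adjoining CArG boxes, CCATATTTGG and CCTTATATGG, whose first bases lie 82 and 72 bases before the start. A CArG box was present in 1.63% of all 32851 promoter windows. Dusp1 held the cAMP response element at 143 bases before the start, which 1.79% of all windows held. The shorter TGACG was present in 3 of the 7 genes, Dusp1, Dusp5 and Spred2, and in 20.8% of all windows. Spry2 held the ETS motif CCGGAA inside the transcribed part of its window, a motif present in 14.9% of all windows. None of the 7 genes held the AP-1 motif TGANTCA, present in 7.81% of all windows, or the TATA motif TATAAA, present in 13.6%. The Dusp6 and Ier3 windows held no match to the cAMP response element, the CArG box, the ETS motif CCGGAA or the AP-1 motif. Other or shorter forms of the ETS site were not searched.

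The arrays were alike, with median log2 signals of 2.67 to 2.73 and pairwise correlations of 0.983 to 0.988, and 0 pairs of columns were identical. The hepatocyte gene Alb, for serum albumin, had a WT mean of 11.92 ± 0.02 and a KO mean of 11.91 ± 0.01 (SD, n = 3 each). Gpr146 itself was lower in every KO mouse than in every WT mouse, at 5.72 ± 0.21 in WT and 4.25 ± 0.37 in KO (SD, n = 3 each), with limma's adjusted p at 0.0702, and it passed when WT mouse 3 was left out, after median centring, and with the trend and robust options. In this whole-tissue RNA, a lower signal may come from fewer cells of a type or from less RNA per cell, and these cannot be told apart.

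Of the 10 feedback genes, 8 had a lower mean in KO and 2 had a higher one. The median difference, KO minus WT, was -0.25 on the log2 scale, against 0.03 for all genes tested, of which 42.3% had a negative difference. Dusp6, Phlda1 and Dusp5 had the largest differences, with KO signals at 49.9%, 50.3% and 62.5% of WT. In limma's fit over all 11090 genes, 0 of the 10 passed an adjusted p of 0.05, where 0.0361% of all genes did. At an unadjusted p under 0.05, 5 of the 10 were lower in KO, where 2.98% of all genes were, and 0 were higher, where 6.16% of all genes were. In 4 genes all 3 KO mice were lower than all 3 WT mice, which 5.16% of all genes showed, and in 1 gene all 3 were higher, which 9.63% showed. With 3 mice against 3 the exact permutation test cannot go below p = 0.1, and these 5 genes reached that value. Dusp5, which passed the filter through its WT livers, is among the 5 lower at limma's unadjusted p and the 4 lower without overlap. The 10 genes were also chosen with earlier results of these data known. Setting these counts beside the shares of all genes is therefore not an independent test.

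**Figure D1:**
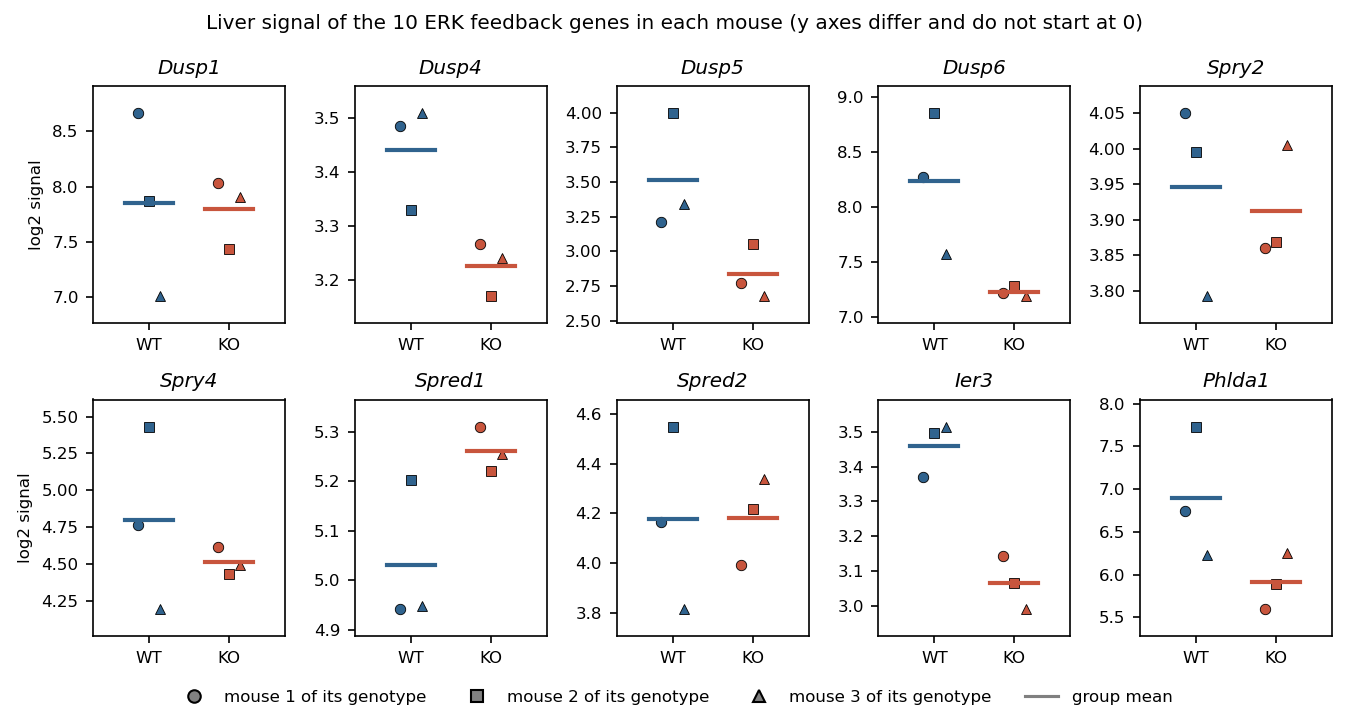
Log2 signal of each of the 10 feedback genes in each mouse, with WT in blue and KO in red, the marker shape giving the mouse number within its genotype, and the bar the mean of 3 mice. Dusp4, Dusp5, Dusp6 and Ier3 are lower in all 3 KO mice than in any WT mouse, Spred1 is higher, and the other 5 genes overlap.

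Among the phosphatases, Dusp6 encodes the cytoplasmic enzyme that acts almost only on ERK. In the WT mice, in the order 1, 2, 3 kept for every gene here, its log2 signal was 8.28, 8.85 and 7.58, and the KO mice had 7.22, 7.28 and 7.20. The KO livers were close to each other and all lay below the lowest WT liver, WT mouse 3, by at least 0.30. The difference was -1.003 ± 0.27 (SE; 95% interval -1.61 to -0.40), a signal 2.00-fold higher in WT, with an unadjusted p of 0.00472 and an adjusted p of 0.346 in limma. Without WT mouse 3 the difference was -1.33 and Dusp6 passed, with limma's adjusted p at 0.0149, and 0.46% of all genes passed there. With each of the other 5 mice left out, or under another setting, the adjusted p ran from 0.270 to 0.602. Without WT mouse 2 the difference was -0.69. A second Dusp6 probe set had weak signal, 2.38, 2.65 and 2.43 in WT and 2.25, 2.24 and 2.22 in KO. That probe set, below the filter, also put every KO mouse under every WT mouse, with a difference of -0.25. When the signals of both probe sets were averaged, the difference was -0.63.

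Dusp5 encodes a nuclear phosphatase specific for ERK. Its WT values were 3.21, 3.99 and 3.34, and its KO values 2.77, 3.06 and 2.68. WT mouse 2 stood highest, and the lowest WT value still exceeded the highest KO value by 0.16. The difference was -0.68 ± 0.20 (SE), 1.60-fold higher in WT, with a limma adjusted p of 0.365. It was -0.44 without WT mouse 2, and -0.25 with a pseudocount of 16 on the linear scale, since its signal is near the filter.

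Dusp4, a nuclear phosphatase that is itself induced by ERK, measured 3.49, 3.33 and 3.51 in WT and 3.27, 3.17 and 3.24 in KO. The groups did not overlap, but the gap between them was 0.06. Its difference was -0.21 ± 0.09 (SE; limma adjusted p = 0.545), and -0.08 with the pseudocount.

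Dusp1 is the immediate early phosphatase with a preference for the stress kinases p38 and JNK, and it differed little between the group means. Its values were 8.66, 7.87 and 7.01 in WT mice and 8.04, 7.43 and 7.91 in KO mice. WT mouse 1 was the highest and WT mouse 3 the lowest of all 6, so the KO livers lay inside the WT range. The difference was -0.05 ± 0.36 (SE; 95% interval -0.87 to 0.76; limma adjusted p = 0.979), an interval that holds both a fall and a rise. Without WT mouse 1 it was 0.35, without KO mouse 2 it was 0.13 and without WT mouse 3 it was -0.47, so its direction depends on single mice.

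**Figure D2:**
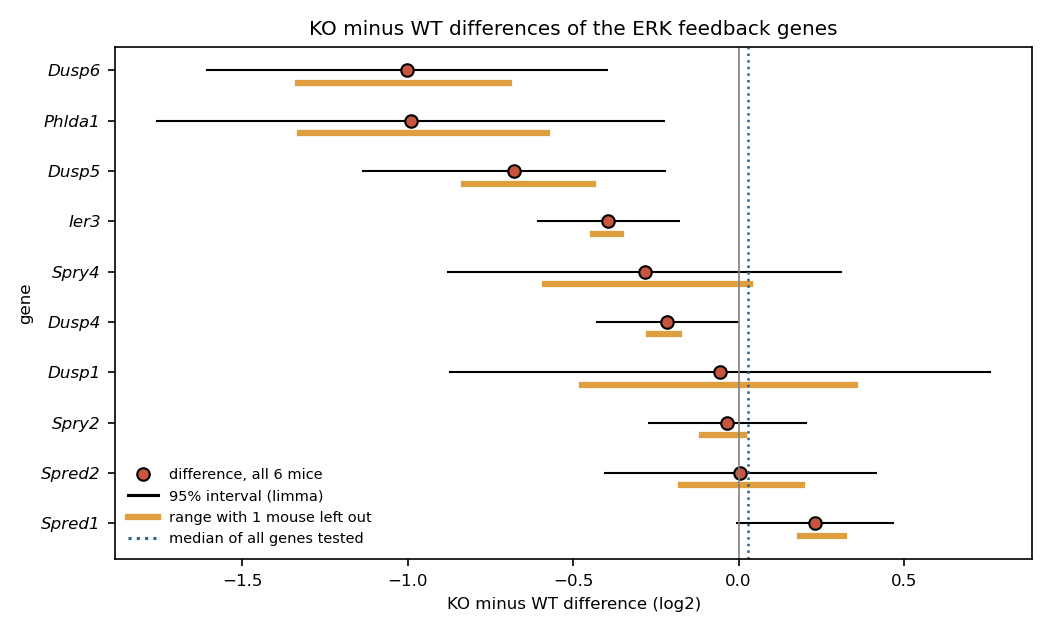
KO minus WT difference of each feedback gene on the log2 scale (points), with limma's 95% interval (black lines), the range when 1 mouse is left out (orange bars) and the median of all genes tested (dotted line). Dusp6, Phlda1, Dusp5, Ier3 and Dusp4 stay below 0 with any mouse left out and Spred1 above 0, while the orange bars of Spry4, Dusp1, Spry2 and Spred2 cross 0.

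The Sprouty genes encode membrane-associated inhibitors of signalling from receptor tyrosine kinases to RAS. Spry4 measured 4.76, 5.43 and 4.19 in WT mice and 4.62, 4.43 and 4.49 in KO mice. WT mouse 2 was the highest and WT mouse 3 the lowest of all 6, and the KO mice lay between them. The difference was -0.28 ± 0.26 (SE; limma adjusted p = 0.783), with 0.03 when WT mouse 2 was left out and -0.59 when WT mouse 3 was.

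Spry2 measured 4.05, 3.99 and 3.79 in WT and 3.86, 3.87 and 4.01 in KO. The groups overlapped over nearly their whole range, and WT mouse 3 was again the lowest of the 6. The difference was -0.03 ± 0.10 (SE; 95% interval -0.27 to 0.20; limma adjusted p = 0.945), and 0.02 without WT mouse 1.

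The SPRED proteins bind neurofibromin, the RAS GTPase-activating protein, and bring it to the membrane. Spred1 was the one gene of the 10 with higher signal in every KO mouse, at 4.94, 5.20 and 4.95 in WT and 5.31, 5.22 and 5.25 in KO. The smallest KO value exceeded WT mouse 2 only slightly, and the other 2 WT mice lay lower. The difference was 0.23 ± 0.10 (SE; limma adjusted p = 0.555), within 0.19 to 0.32 when a mouse was left out. Spred2 measured 4.17, 4.55 and 3.82 in WT and 3.99, 4.22 and 4.34 in KO, with the lowest and the highest value both in WT. Its difference was 0.0056 ± 0.18 (SE; 95% interval -0.40 to 0.42; limma adjusted p = 0.995). The sign of that value turned in 6 of 14 alternatives, down to -0.18 without WT mouse 3.

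Ier3 and Phlda1 are early genes induced through ERK. Ier3, a small protein that affects cell survival, had signal near the filter and little spread. It measured 3.37, 3.50 and 3.51 in WT mice and 3.14, 3.07 and 2.99 in KO mice, a gap of 0.23 between the groups. The difference was -0.39 ± 0.09 (SE), and of the 10 genes it had the smallest unadjusted p, 0.00251 (limma adjusted p = 0.308). It lay between -0.44 and -0.36 when a mouse was left out and was -0.15 with the pseudocount. Unlike Dusp6, it was highest in WT mouse 3.

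Phlda1 encodes a pleckstrin homology-like domain protein. It measured 6.74, 7.73 and 6.23 in WT and 5.60, 5.88 and 6.25 in KO. The groups overlapped by 0.01, since KO mouse 3 matched WT mouse 3, and WT mouse 2 stood far above the rest. The difference was -0.99 ± 0.34 (SE), 1.99-fold higher in WT (limma adjusted p = 0.431). Leaving out WT mouse 2 gave -0.58, and leaving out WT mouse 3 gave -1.33.

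**Figure D3:**
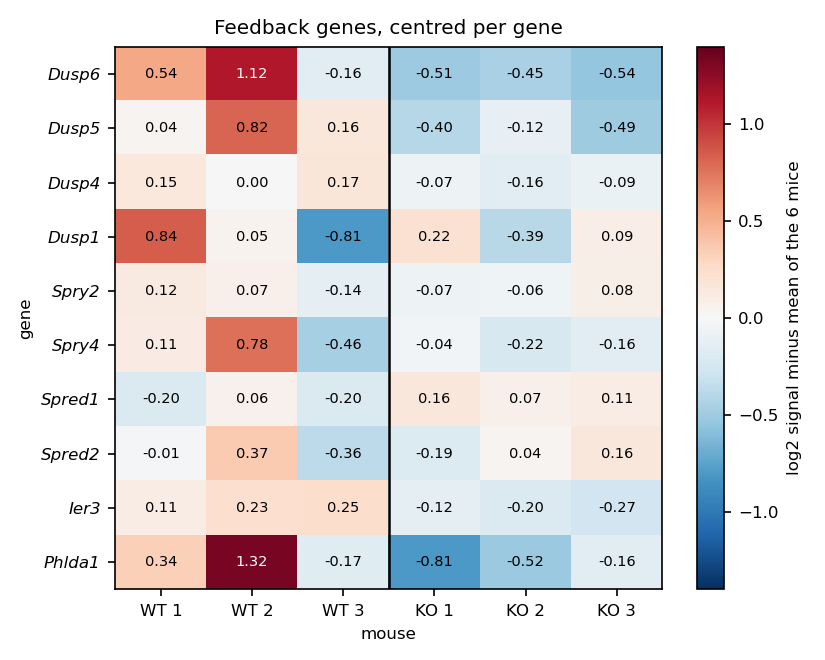
Log2 signal of each feedback gene (rows) in each mouse (columns) after subtracting the gene's mean over the 6 mice, red above and blue below that mean. WT mouse 2 is the highest WT mouse in 6 genes, and WT mouse 3 is the lowest WT mouse in 6 genes.

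The genes varied more among WT than among KO livers. The range over the 3 WT mice was wider than that over the 3 KO mice in 9 of the 10 genes, and in 53.4% of all genes tested. For Dusp6 the WT range was 1.27 and the KO range 0.08. For Spry4 these ranges were 1.24 and 0.19, for Phlda1 1.50 and 0.65, and for Dusp1 1.65 and 0.60. Ier3 was the exception, with 0.14 in WT and 0.15 in KO.

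WT mouse 2 was the highest WT mouse in 6 of the 10 genes, as in 43.9% of all genes, and WT mouse 3 the lowest WT mouse in 6, as in 32.4% of all genes. The median over the 10 genes of the signal centred on each gene's mean was 0.12, 0.30 and -0.16 in the WT mice and -0.09, -0.18 and -0.13 in the KO mice. WT mouse 3 thus lay among the KO mice on this measure, while over all genes tested the same median was -0.01 in WT mouse 3. The 6 genes in which WT mouse 3 was the lowest WT mouse were Dusp1, Dusp6, Spry2, Spry4, Spred2 and Phlda1. In 4 of these, Dusp1, Spry2, Spry4 and Spred2, WT mouse 3 was also below all KO mice. Without WT mouse 3 the median difference of the 10 genes was -0.42.

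The other genes of the pathway were taken from lists of general knowledge. Other MAP kinase phosphatases had a median difference of 0.03 over 10 tested genes of 12, with 4 negative and 6 positive. None of them passed limma's adjusted threshold. At an unadjusted limma p under 0.05, 0 were higher in KO, where 6.16% of all genes were, and 1 was lower, where 2.98% were. The lower gene was Dusp10, a phosphatase of p38 and JNK, which was at 4.48, 4.48 and 4.45 in WT and 4.14, 4.04 and 4.03 in KO. Its groups lay well apart, with a difference of -0.40 ± 0.09 (SE; limma adjusted p = 0.277), or -0.22 with the pseudocount. Dusp8 was at -0.19 (-0.10 without WT mouse 2 and -0.07 with the pseudocount), and with a KO mean of 2.90 it passed the filter through its WT livers. Dusp3 was at 0.19 (0.09 without KO mouse 3) and the phosphatase gene Ppm1b at 0.15 (0.07 without KO mouse 3).

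Other inhibitors of RAS and ERK signalling had a median of -0.03 over 8 tested genes of 12, 4 negative and 4 positive, with 0 past limma's adjusted threshold. At an unadjusted limma p under 0.05, 2 were lower in KO, where 2.98% of all genes were, and 0 were higher, where 6.16% were. The linear signals of all 12 were summed and given as log2. This sum was 10.20 to 10.45 in WT and 9.91 to 10.07 in KO, without overlap, and Errfi1 had the highest signal of the 12. Errfi1, the feedback inhibitor of the EGF receptor, was at 9.83, 10.09 and 9.77 in WT and 9.50, 9.40 and 9.58 in KO. All KO mice lay below all WT mice, with a difference of -0.40 ± 0.11 (SE; limma adjusted p = 0.357). Pebp1, an inhibitor of the cascade, differed by -0.40 ± 0.11 (SE; limma adjusted p = 0.358), also with no overlap, by -0.26 with the pseudocount and by -0.15 when its probe sets were averaged. Spry1, the third Sprouty gene tested, was at -0.12 (-0.04 without WT mouse 1). Cbl, a ubiquitin ligase for activated receptors, was at 0.21 (0.05 without KO mouse 3).

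The cascade itself, from receptors and adaptors to RAF, MEK and ERK, had a median of 0.01 over 16 tested genes of 22, 8 negative and 8 positive. None passed limma's adjusted threshold. At an unadjusted limma p under 0.05, 0 were higher in KO, where 6.16% of all genes were, and 1 was lower, where 2.98% were. That gene was Nras, at -0.26 ± 0.11 (SE; limma adjusted p = 0.522). The exchange factors Sos1 and Sos2 were at 0.16 and 0.20 and the kinase Braf at 0.18. With 1 mouse left out these ran from 0.04 to 0.24, 0.10 to 0.30 and 0.09 to 0.25, the lowest without WT mouse 1 for Sos1 and without KO mouse 3 for Braf.

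Immediate early transcription factors, which lie beside the feedback genes as ERK targets, had a median of -0.85 over 18 tested genes, with 15 negative and 3 positive. None passed limma's adjusted threshold with all 6 mice. At an unadjusted limma p under 0.05, 13 were lower in KO, where 2.98% of all genes were, and 0 were higher, where 6.16% were. This list, too, was chosen with earlier results of these data known. Egr1 was at 8.55, 9.16 and 4.08 in WT and 4.48, 3.46 and 3.65 in KO, so WT mouse 3 was among the KO values and WT mice 1 and 2 far above them. Egr2, Egr3 and Maff differed by -1.62, -0.69 and -0.63, and by -0.72, -0.30 and -0.25 with the pseudocount. Egr2 and Fosb, both among the 13, had KO means of 2.57 and 2.78 and passed the signal filter through their WT livers. Without WT mouse 3, Egr1, Egr2 and Egr3 passed (limma adjusted p = 0.000225, 0.0213 and 0.00953) and Maff did not (0.0530). WT mouse 3 was the lowest WT mouse in 16 of these 18 genes. Without WT mouse 3, 9 of the 18 passed limma's adjusted threshold, against 1 of the 10 feedback genes, which is Dusp6, and 0.46% of all genes.

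**Figure D4:**
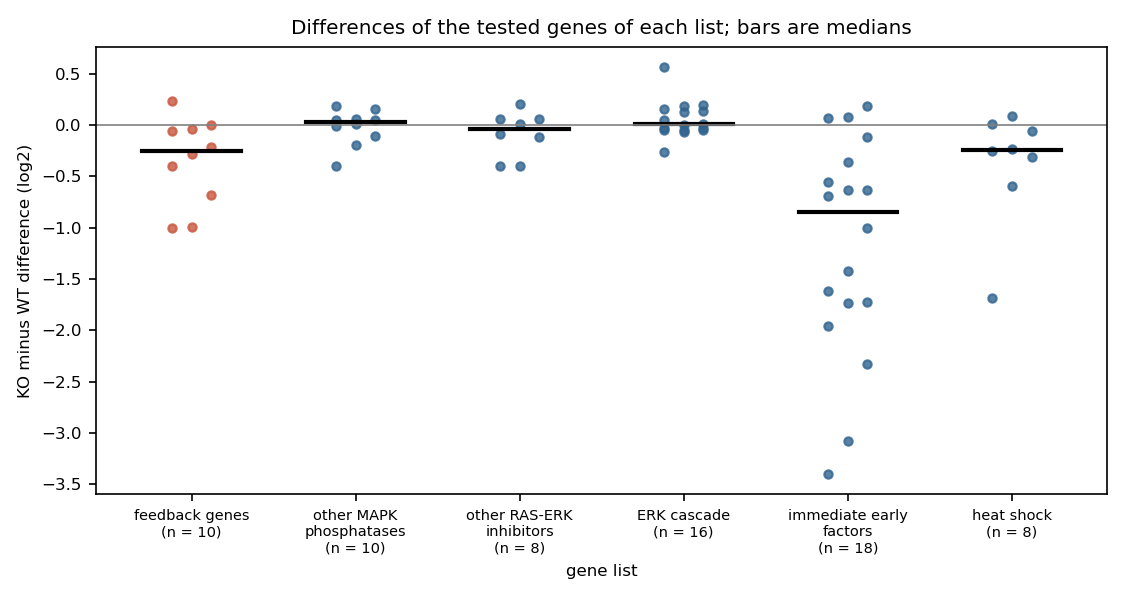
KO minus WT difference on the log2 scale of each tested gene (points) in the feedback genes (red) and 5 other lists (blue), with the list median as a bar and n the number of tested genes. Immediate early factors have the lowest median, -0.85, while the feedback genes lie at -0.25 and the heat shock genes at -0.24. The medians of the other phosphatases, the other inhibitors and the cascade lie between -0.03 and 0.03.

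A signature of transcripts that respond to MEK inhibition overlaps the feedback genes in 5 of its 10 members, Phlda1, Spry2, Spry4, Dusp4 and Dusp6. Over its 8 tested members the median difference was -0.13, with 6 negative and 2 positive, and 0 passed limma's adjusted threshold. At an unadjusted limma p under 0.05, 3 were lower in KO, where 2.98% of all genes were. Those 3 are Phlda1, Dusp4 and Dusp6, already counted among the feedback genes, so the signature adds no further gene. The receptor gene Epha2, which is not a feedback gene here, was at 0.30 ± 0.16 (SE; limma adjusted p = 0.611), and at 0.11 without WT mouse 3.

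The summed signal of the heat shock genes, which encode chaperones, did not overlap between the groups. This sum, on the log2 scale, was 11.21 to 11.39 in WT and 10.94 to 11.02 in KO, over 8 of 8 genes. Hspa8 had the highest signal of the 8, at 10.78 in WT and 10.52 in KO, and so weighed most in the sum. The median difference of the 8 genes was -0.24, close to the -0.25 of the feedback genes, with 6 negative and 2 positive. In 2 of the 8 genes all KO mice lay below all WT mice, which 5.16% of all genes showed. Dnajb1, a co-chaperone, was at 7.70, 7.98 and 6.40 in WT and 5.45, 5.72 and 5.87 in KO, with a difference of -1.68 ± 0.35 (SE; limma adjusted p = 0.277). Without WT mouse 3 it passed, at -2.17 (limma adjusted p = 0.000638). Hspa8 was at -0.25 ± 0.09 (SE), and at -0.48 when its probe sets were averaged. Hspa1b and Hsph1, at -0.59 and -0.23, were highest in WT mouse 3, where Dusp6 was the lowest of the WT mice, and without that mouse they were at -0.09 and -0.03. The part of the heat shock genes in the feedback genes' differences was not tested.

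Of the markers of cell types, the sum for bile duct cells did not overlap between the groups. The linear signals of 6 of 8 bile duct markers were summed and given as log2. This sum was 6.62 to 6.88 in WT and 7.22 to 7.45 in KO. That sum rested on Cdh1, at 4.97 in WT and 5.90 in KO, and Sox9, at 5.64 and 6.05. The defining ductal markers Krt19 and Epcam were below the filter in both groups, at 2.43 and 2.85 in WT and 2.38 and 2.76 in KO. The part of these markers in the feedback genes' differences was not tested. The summed signal overlapped between WT and KO for 6 of 7 hepatocyte markers, 8 of 8 Kupffer, sinusoidal endothelial and stellate markers, 7 of 8 T and NK cell markers and 8 of 8 neutrophil and monocyte markers. All 8 of the neutrophil and monocyte markers were below the filter.

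The genes whose pattern over the 6 mice came nearest to that of Dusp6 were sought among all genes tested, by the root mean square difference between values centred on each gene's own mean. Bud13, a splicing factor subunit, was nearest at 0.15, followed by Adamts1, a secreted metalloprotease, at 0.17. Ppp1r10, a nuclear targeting subunit of protein phosphatase 1, was at 0.18, Ptp4a1, a prenylated tyrosine phosphatase, at 0.19 and Actg1, a cytoplasmic actin, at 0.20. All 5 had higher signal in WT mice 1 and 2 than in any of the other 4 mice. Because the 5 were picked by these same values, this pattern and the differences and calls below follow from the choice. They add no separate result. Their differences were -0.88, -0.79, -0.93, -0.85 and -0.98 in that order, with limma's adjusted p between 0.280 and 0.483. Without WT mouse 3, Bud13, Ppp1r10, Ptp4a1 and Actg1 passed (limma adjusted p = 0.0237, 0.00505, 0.00513 and 0.0172) and Adamts1 did not (0.133). Without WT mouse 2, Bud13 was at -0.51 and Adamts1 at -0.48, and with the pseudocount Bud13 was at -0.54. Among the feedback genes, Phlda1 was nearest to Dusp6, at 0.23 and in place 11 of all other genes, followed by Dusp5 at 0.31 in place 31 and Spry4 at 0.37 in place 65. Dusp1 and Spred1 were the farthest, at 0.66 and 0.69.

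**Figure D5:**
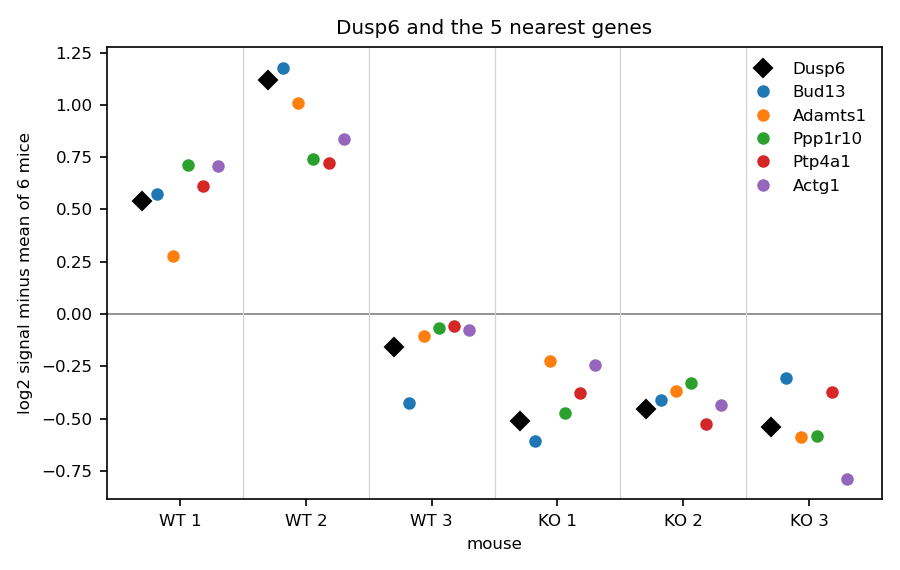
Log2 signal minus the gene's mean over the 6 mice (y axis) for Dusp6 (black diamonds) and the 5 genes nearest to it by root mean square difference (coloured points) in each mouse (x axis). All 6 genes are highest in WT mice 1 and 2, a pattern for which the 5 were picked.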

How the data were processed

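RNA of 6 livers, 1 mouse per array, was extracted with Trizol and labelled as biotinylated cRNA, per the labels' protocols. The authors deposited log2 values for 41345 probe sets; the sources used here do not give the summary and normalization, and the log2 scale was read from maxima of 12.1 to 12.2, above 11.1, the natural log of the highest 16-bit reading. 0 columns were left unmapped. Of the probe sets, 23521 carried 1 gene symbol, 1814 several and 16010 none listed; symbols were updated through Entrez numbers to GRCm38.p6 (23328 matched). No array coordinates are printed.

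KO and WT were compared with limma 3.58.1 in R 4.3.3 (lmFit, eBayes, two-sided, no covariate; Benjamini-Hochberg over 11090 genes at 0.05), and single genes by the exact two-sided permutation test in scipy 1.17.1. Standard errors of differences had a median of 0.11 on the log2 scale, and the number of arrays limits the precision. The fit was tested on simulated data. The members and lists were chosen with earlier results of these data known. Named were all 10 members, Gpr146 and Alb, up to 4 genes of smallest p per list, and the 5 genes nearest to Dusp6. The 15 alternatives covered the filter, probe set choice, quantile normalization, median centring, a pseudocount, trend and robust options, array weights, a replicate block and each mouse left out.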

Additional observations from a re-analysis of the deposited data

How the results depend on the processing

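Of 144 values of the 10 feedback genes under alternatives, 133 kept their direction and side of the threshold, 1 passed it (Dusp6 without WT mouse 3) and 10 changed sign. The count of feedback genes called was 0 to 1 with a mouse left out and 0 in the other alternatives. With a mouse left out, Dusp1 ran from -0.472 (WT mouse 3) to 0.353 (WT mouse 1), and it was 0.125 when KO mouse 2 was dropped. Spry2 ran from -0.111 to 0.0178, Spry4 from -0.585 to 0.0336, Spred2 from -0.175 to 0.191 and Alb from -0.0242 to 0.00050. Spred2 was at -0.0512 with quantile normalization, -0.0087 with median centring and -0.0030 with the pseudocount, and it was also negative without KO mouse 2 (-0.0119) and KO mouse 3 (-0.0719). The median of the feedback genes ran from -0.42 to -0.16 with a mouse left out. It was -0.52 in the upper 25% of signal, where 4 of the 10 were tested. Over all genes, 4 were called with all mice, 0 in the upper 25% of signal (567 at an unadjusted limma p under 0.05), 1 with the pseudocount, 1 with the replicate block, and 1 to 51 with a mouse left out, the 51 without WT mouse 3. The block called 0 feedback genes (4 at an unadjusted limma p under 0.05). Deviations from the group means of mice that share a number correlated over genes at 0.055, -0.187 and 0.147, and not every mouse correlated best with its own number, so the numbers were not taken as pairs. Causes were not tested. Signals near the filter, as of Dusp4, Dusp5 and Ier3, may be compressed by background, which would limit their folds and was not tested.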
